A study of Mus musculus with 12 samples.

Results

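Poly(A)-binding proteins and the PAIP proteins that regulate them were followed through the last phase of mouse sperm formation, from round (RS) to elongated (ES) spermatids. Members were the contigs, that is the reference transcripts to which reads were assigned, whose deposited gene symbol was Pabpc1, Pabpc2, Pabpc6, Pabpn1, Paip1, Paip2 or Paip2b. They were 12 of the 12114 contigs in the count matrix and belonged to 6 of the 7 listed genes. Paip1 was not analysed here.

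The reads came from nanopore direct RNA sequencing of oligo(dT)-purified RNA, in which each read is 1 RNA molecule read from its 3′ end. The 12 libraries fell into 4 groups of 3. RS wt/wt and ES wt/wt were spermatids from adult males with wild-type Tent5c. RS dcat/dcat and ES dcat/dcat were spermatids from adult males homozygous for a catalytically dead Tent5c allele, inherited through the germline and so present in every cell, on a C57BL/6 background. TENT5C is a cytoplasmic poly(A) polymerase, so the mutant protein cannot lengthen tails. Spermatids of both stages were sorted after Hoechst and propidium iodide staining, and each library pooled mRNA from 3 mice, so the spread between libraries is that between pools. A library held 337287 to 1359427 reads.

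PABPC proteins coat the poly(A) tail in the cytoplasm, where they promote translation through eIF4G and modulate deadenylation. PABPN1 binds the tail in the nucleus and helps set its length when it is made. PAIP2 and PAIP2B bind PABPC1 and displace it from the tail, which represses translation, whereas PAIP1 stimulates it. In the testis, transcription stops as spermatids elongate, and stored mRNAs carry protein synthesis from then on. Pabpc2 is an intronless, testis-expressed relative of Pabpc1.

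The member sequences show how alike the cytoplasmic genes are, and how well reads were told apart between them was not tested. Pabpc1 (Pabpc1-201, ENSMUST00000001809) lies on the minus strand of chromosome 15 from 36595661 to 36608973 (GRCm38, GENCODE vM21) and has 15 exons, 2817 nt in all. Pabpc6 (Pabpc6-201, ENSMUST00000057190) has 1 exon, on the minus strand of chromosome 17 from 9666495 to 9669717. The coding sequence of Pabpc1 was 81.92% identical to that of Pabpc2 and 81.25% identical to that of Pabpc6, and the longest stretches that they shared without a mismatch were 37 and 42 nt. The first 60 coding bases of Pabpc1 (chr15:36608447-36608506, minus strand) and Pabpc6 (chr17:9669561-9669620, minus strand) are shown because they belong to the most similar pair by shared stretch, with the 9 positions at which they differ in capitals.
Pabpc1: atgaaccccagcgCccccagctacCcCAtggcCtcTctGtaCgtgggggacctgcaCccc
Pabpc6: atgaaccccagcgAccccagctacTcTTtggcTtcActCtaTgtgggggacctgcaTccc

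The 5′ UTR of Pabpc1 is known for an A-rich stretch to which PABPC1 itself binds. Its most A-rich window of 30 bases, at chr15:36608840-36608869 on the minus strand of GRCm38, held 22 A, in capitals here.
Pabpc1: gAAAAAAcccAAAAAAAAtttAcAAAAAAA

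The same measure was 6 for Pabpc2 and 3 for Pabpc6. Its median was 10 over the 9286 contigs with a 5′ UTR of at least 30 bases, of which 54 (0.582%) reached the value of Pabpc1. The single-exon relatives thus share most of the coding sequence of Pabpc1 without this stretch.

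The 3′ ends of the members also differed. AATAAA or ATTAAA, the common poly(A) signals, stood within the last 40 bases of 73.7% of the contigs found in the annotation, searched on the transcript strand. The last 30 bases of the main contig of Pabpc1 (chr15:36595661-36595690, minus strand), Pabpc6 (chr17:9666495-9666524, minus strand), Pabpn1 (chr14:54898140-54898169, plus strand) and Paip2b (chr6:83805401-83805430, minus strand) show a member with and without a signal, with AATAAA in capitals.
Pabpc1: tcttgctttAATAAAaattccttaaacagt
Paip2b: atccaaccaaacAATAAAgctgactgcata
Pabpc6: cacaaatacaaattaattttttaagtttaa
Pabpn1: gaagatgaccttgatggaaaaaaaatattt

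No AATAAA or ATTAAA was found in the 40-base window of Pabpc6-201 or Pabpn1-201, nor in that of Paip2-206, Paip2-207 or Paip2-208. These letters describe the annotated ends, not ends measured in these reads.

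The libraries were checked against marker genes before the members were compared. All 7 elongated spermatid markers, such as the protamines Prm1 and Prm2, were higher in ES than in RS in both genotypes, and their summed level per library went from 17408 to 40819 CPM in RS to 218520 to 294015 CPM in ES. CPM are reads of a contig per 1e+06 reads of a library, scaled here by TMM, a normalization that corrects for such shifts in composition. The summed level of the 6 round spermatid markers was no higher in RS, at 721 to 994 CPM, than in ES, at 973 to 1129 CPM, and 8 meiotic markers summed to 961 to 1165 CPM in RS and to 623 to 790 CPM in ES. Somatic markers moved with the stage. The 3 of 7 Leydig cell genes with a contig (Insl3, Cyp11a1 and Cyp17a1) summed to 8.31 to 37.2 CPM in RS and to 185 to 740 CPM in ES, and the 3 of 8 Sertoli cell genes with a contig (Clu, Aard and Defb19) to 4.88 to 36.9 CPM in RS and to 197 to 437 CPM in ES. The other listed markers (Star, Hsd3b1, Hsd3b6 and Lhcgr of Leydig cells, Sox9, Wt1, Amh, Rhox5 and Gata4 of Sertoli cells) were not analysed here, having no contig with their symbol. All 6 measured were called higher in ES in both genotypes, and the part of these cells in the member results below was not tested. Tent5c mRNA did not check the mutant label, since the dcat allele is still transcribed: its log2 difference between genotypes was 0.16 in RS and 0.22 in ES, both uncalled.

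Between RS and ES, the tail-coating PABPC mRNAs and the mRNAs of their nuclear relative and their inhibitor moved in opposite directions. All 3 cytoplasmic members, Pabpc1, Pabpc2 and Pabpc6, were lower in ES, whereas the main contigs of Pabpn1 and Paip2 were higher. The counts were the same in both genotypes: of 12 member contigs, 8 were higher, 3 lower and 1 not called. Of the 8, Pabpn1-208 and Paip2-207 passed the filter on low reads only through ES groups, which favoured that call, and are not counted as support. Of the other 10 contigs, 6 were higher, 3 lower and 1 not called. Tests were edgeR's quasi-likelihood fit over all 11831 contigs that passed a filter on low reads, with a call at an adjusted p of 0.05 or below, and all 12 members passed that filter. Across all contigs tested in wt/wt, 23.8% were called higher and 16.5% lower in ES; in dcat/dcat these shares were 24.0% and 16.9%. With the contigs of each gene summed, 2 members (Pabpn1 and Paip2) were higher and 3 lower of 6 in wt/wt, against 26.1% and 22.9% of all 7706 genes. In dcat/dcat, 2 were higher and 2 lower, against 26.4% and 22.8%. The sums of Pabpn1 and Paip2 include the reads of Pabpn1-208 and Paip2-207, so the filter favoured, in part, their higher calls. Scaling by total counts in place of TMM kept the member contig calls and their directions but moved the sizes by over 1.5 times. For Pabpc1 in wt/wt and dcat/dcat the log2 differences were -1.38 and -1.21, for Pabpc2 -1.55 and -1.52 and for Pabpc6 -1.66 and -1.8. For Pabpn1-201 they were 1.13 and 0.847, and for Paip2-201 1.16 and 1.13. By gene sums that scaling added a call of Pabpc1 in dcat/dcat (-1.21, edgeR adjusted p = 1.76e-05). Since a CPM value is a share of a library, fewer cells of a type and less RNA per cell cannot be told apart.

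**Figure D1:**
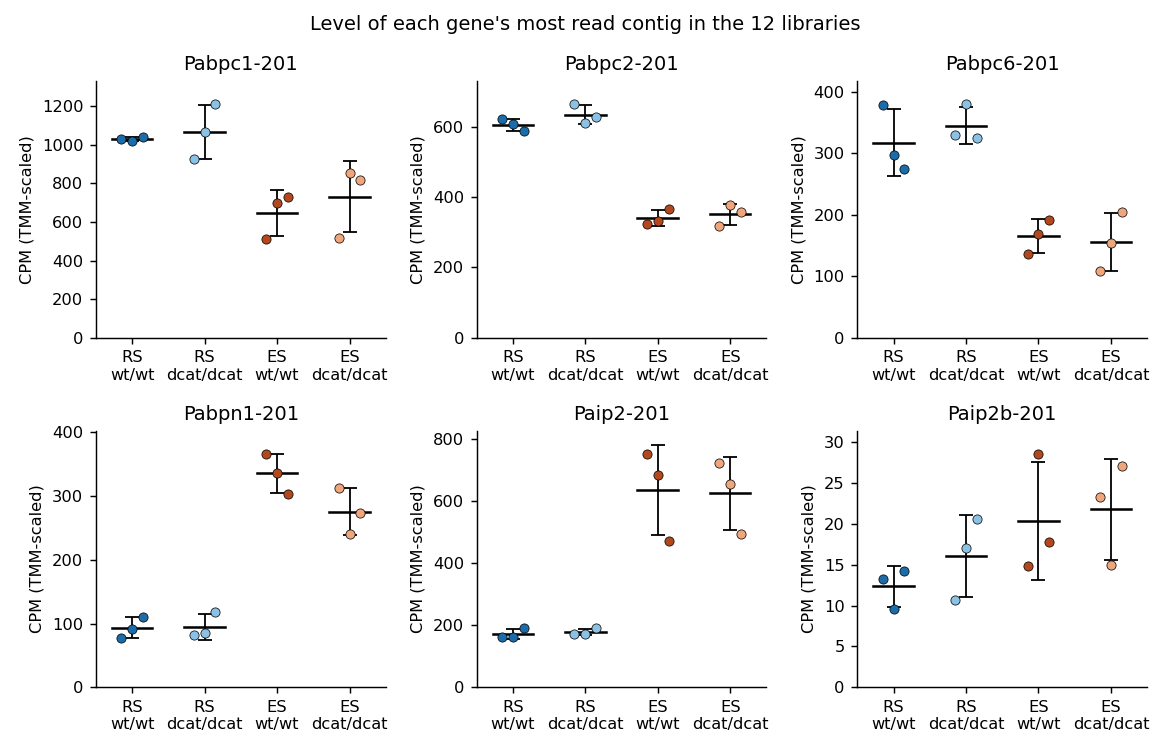
Level (TMM-scaled CPM, each axis from 0) of the most read contig of each of the 6 genes in the 12 libraries. Points are libraries, the horizontal line is the group mean and the bars are ±1 SD (n = 3); the PABPC panels sit lower in ES, the Pabpn1-201 and Paip2-201 panels sit higher, and the Paip2b panel overlaps between stages in dcat/dcat.

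Pabpc1, the major cytoplasmic poly(A)-binding protein, was level among RS wt/wt libraries at 1028, 1021 and 1038 CPM. In ES wt/wt it stood at 509, 698 and 731 CPM. In RS dcat/dcat the levels were 926, 1065 and 1209 CPM, and in ES dcat/dcat 519, 854 and 819 CPM. With this scaling over contigs, every RS library was above every ES library of its genotype, and replicate 1 was the lowest ES library in both. The log2 difference was -0.67 ± 0.196 (SE, adjusted p = 0.0131, edgeR) in wt/wt and -0.55 ± 0.195 (adjusted p = 0.0364) in dcat/dcat, which is a 1.6-fold and a 1.46-fold lower level. These calls depended on the libraries and the filter. With at least 10 reads required in every library the differences were -0.99 (edgeR adjusted p = 0.000939) and -0.812 (adjusted p = 0.00347). Without ES wt/wt replicate 1 the wt/wt difference was -0.45 (edgeR adjusted p = 0.106), and in dcat/dcat the adjusted p rose to between 0.0599 and 0.142 when RS replicate 2 or 3 or ES replicate 1 or 3 was left out, and was 0.061 with the 2 groups alone. With gene sums, scaled over genes, the difference was -0.56 (adjusted p = 0.0266, edgeR) in wt/wt but -0.43 (adjusted p = 0.0806) in dcat/dcat, and in wt/wt it lost its call without RS replicate 2 (adjusted p = 0.063) or 3 (0.0507) or ES replicate 1 (0.189). Scaled over genes, the dcat/dcat stages overlapped: RS replicate 1, at 847 CPM, lay below ES replicates 2 and 3, at 900 and 875 CPM. Same-numbered dcat/dcat libraries deviated together across stages in every pair. With the number as 1 block over all 12 libraries, the dcat/dcat gene-sum difference was -0.45 (adjusted p = 0.0106, edgeR). That block also spanned the wt/wt libraries, so it is not a paired test of dcat/dcat alone.

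Pabpc2 (Pabpc2-201, ENSMUST00000063219) has 1 exon, on the plus strand of chromosome 18 from 39773497 to 39776082. Its groups were tight. It was at 622, 608 and 588 CPM in RS wt/wt and at 323, 331 and 367 CPM in ES wt/wt. The dcat/dcat libraries stood at 664, 612 and 628 CPM in RS and at 318, 377 and 358 CPM in ES. The 6 RS libraries lay far above the 6 ES libraries, with no overlap. Its log2 difference was -0.83 ± 0.139 (SE, edgeR adjusted p = 0.000279) in wt/wt and -0.85 ± 0.139 (adjusted p = 0.000223) in dcat/dcat.

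Pabpc6, the other single-exon relative, stood at 379, 298 and 275 CPM in RS wt/wt and at 137, 169 and 191 CPM in ES wt/wt. In dcat/dcat it was at 330, 380 and 326 CPM in RS and at 109, 155 and 204 CPM in ES. Its lowest RS library exceeded its highest ES library in each genotype. The log2 difference of -0.94 ± 0.225 (SE, edgeR adjusted p = 0.00391) in wt/wt and -1.14 ± 0.224 (adjusted p = 0.00101) in dcat/dcat was the largest decrease among the members. The median log2 difference of all contigs was itself -0.24 in wt/wt and -0.18 in dcat/dcat, below which all 3 PABPC contigs lay. In wt/wt, 33.4% of all contigs had a lower difference than Pabpc1, 26.1% than Pabpc2 and 21.3% than Pabpc6.

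Reads of the 3 cytoplasmic genes were split in broadly like shares in every group, with Pabpc1 ahead of Pabpc2 and Pabpc2 ahead of Pabpc6. Pabpc1 held 50.7% to 54.6% of their summed reads in RS wt/wt and 52.5% to 58.3% in ES wt/wt. In dcat/dcat its share was 48.2% to 55.9% in RS and 54.9% to 61.6% in ES, the widest shift in mean, from 52% to 58.6%. Pabpc2 held 27.6% to 33.3% in wt/wt and 25.9% to 34.6% in dcat/dcat, and its stages overlapped in both. The Pabpc6 share was 14.5% to 18.7% in RS and 14.1% to 14.8% in ES in wt/wt, and 15.1% to 18.5% and 11.2% to 14.8% in dcat/dcat, where the stages did not overlap. These shares were not tested.

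Pabpn1, which binds poly(A) in the nucleus, is on the plus strand of chromosome 14 (54894148 to 54898169, GRCm38, 7 exons for Pabpn1-201, ENSMUST00000022808). Pabpn1-201 was at 78.1, 91.8 and 111 CPM in RS wt/wt and at 366, 337 and 304 CPM in ES wt/wt. In dcat/dcat it was at 82.3, 85.2 and 119 CPM in RS and at 313, 240 and 274 CPM in ES. The stages were apart by more than the spread of any group. The rise was 1.84 ± 0.206 on the log2 scale (SE, edgeR adjusted p = 8.7e-06), or 3.58-fold, in wt/wt and 1.52 ± 0.206 (adjusted p = 4.94e-05), or 2.87-fold, in dcat/dcat. The shorter contig Pabpn1-208 (ENSMUST00000172557) had 0, 3 and 9 reads in RS wt/wt, 0, 1 and 9 reads in RS dcat/dcat, and 6 to 18 reads in each ES library. It passed the filter on low reads through ES dcat/dcat alone, so its call in the fit is no test and its change is given by these reads only.

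Paip2, the inhibitor of PABPC1, lies on the plus strand of chromosome 18 and ends at 35617186 for its most read contig, Paip2-201 (ENSMUST00000041314, start 35598617, 4 exons). Paip2-201 was at 163, 162 and 192 CPM in RS wt/wt and at 752, 683 and 473 CPM in ES wt/wt. In dcat/dcat it was at 173, 172 and 190 CPM in RS and at 723, 657 and 495 CPM in ES. Replicate 3 was the lowest ES library in both genotypes and was still well above every RS library. The rise was 1.89 ± 0.199 on the log2 scale (SE, edgeR adjusted p = 5.24e-06), or 3.7-fold, in wt/wt and 1.81 ± 0.199 (adjusted p = 9.86e-06), or 3.5-fold, in dcat/dcat. Of the other 5 Paip2 contigs, all with the same coding length of 375 nt, the 4 that also passed the filter in RS rose by 2.15 to 2.83 in wt/wt and by 2.06 to 2.69 in dcat/dcat on the log2 scale. Paip2-207 had 2 to 11 reads in the RS libraries and 8 to 34 in the ES libraries. Since these contigs share most of their bases, reads may be divided among them with error, on which the gene sum does not depend. It rose by 2.15 ± 0.184 (SE, edgeR adjusted p = 8.82e-09) in wt/wt and 2.08 ± 0.184 (adjusted p = 1.83e-08) in dcat/dcat. The sum includes the reads of Paip2-207, which passed the filter only through ES groups, so the filter favoured, in part, this rise. The rise of Paip2-201 exceeded that of 86.1% of all contigs in wt/wt.

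Paip2b (Paip2b-201, ENSMUST00000058383, minus strand of chromosome 6, 83805401 to 83831741), the second PAIP2, shared 64.24% of aligned coding bases with Paip2 but was sparse, with 5 to 25 reads per library. It stood at 13.3, 9.53 and 14.2 CPM in RS wt/wt and at 14.8, 28.5 and 17.7 CPM in ES wt/wt. In dcat/dcat the levels were 10.7, 17 and 20.6 CPM in RS and 23.2, 15 and 27 CPM in ES. The wt/wt groups came close without overlapping, and the dcat/dcat groups overlapped. The log2 difference was 0.71 (95% interval -0.12 to 1.55, edgeR adjusted p = 0.157) in wt/wt and 0.44 (interval -0.36 to 1.25, adjusted p = 0.366) in dcat/dcat, and scaling by total counts turned its sign to -0.0022 and -0.22, so a change of Paip2b was not detectable at this depth.

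**Figure D2:**
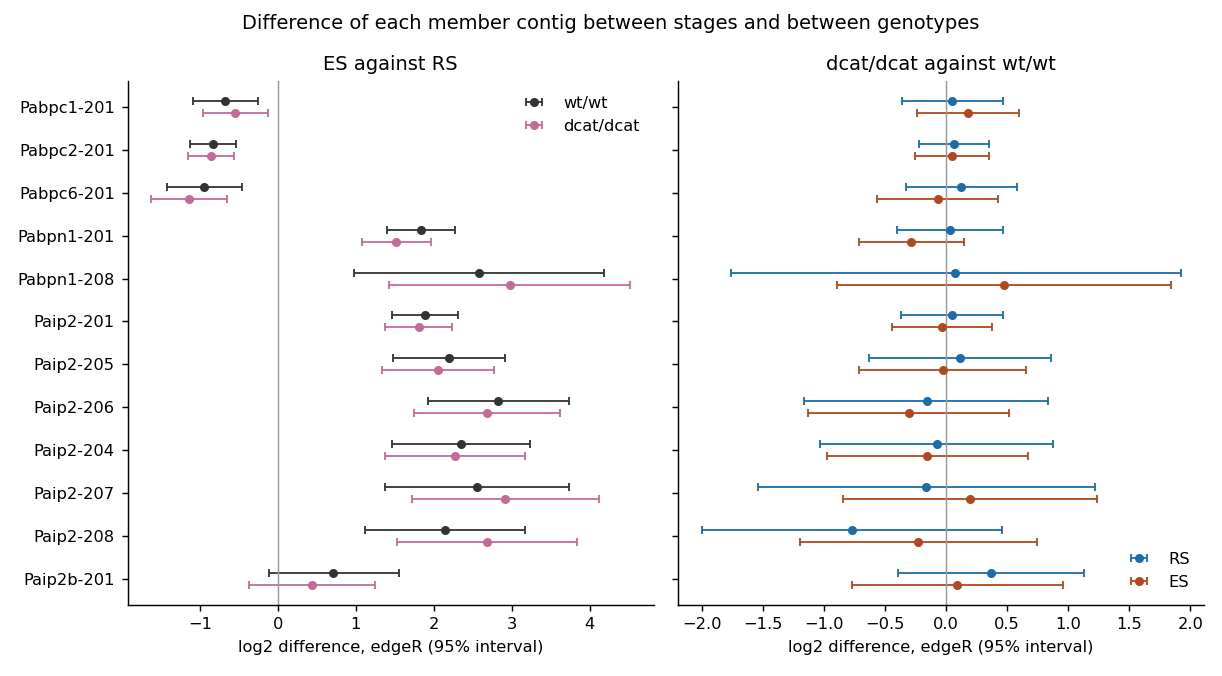
Log2 difference of each of the 12 member contigs from edgeR with its 95% interval, ES against RS on the left (by genotype) and dcat/dcat against wt/wt on the right (by stage). In the stage panel 3 PABPC contigs lie below 0 and 8 Pabpn1 and Paip2 contigs above it (Pabpn1-208 and Paip2-207 passed the filter only through ES), while every interval in the genotype panel covers 0.

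The order of the members depended on the scale and on whether the contigs of a gene were summed. By gene sums, Paip2 stood above Pabpc1 in ES wt/wt, at 1002 ± 180 against 670 ± 140 CPM (SD, n = 3), without overlap. In ES dcat/dcat Paip2 was at 973 ± 86.4 and Pabpc1 at 766 ± 210 CPM, with overlap. Since each direct RNA read is 1 molecule, CPM undivided by length counts molecules. On it Pabpc1-201 had the highest mean of any single member contig in all 4 groups. In RS wt/wt it was followed by Pabpc2-201 (606 ± 17 CPM, SD, n = 3), Pabpc6-201 (317 ± 54.6), Paip2-201 (172 ± 16.8), Pabpn1-201 (93.5 ± 16.3) and Paip2b-201 (12.3 ± 2.47), with no overlap between neighbours. In ES wt/wt Pabpc1-201 (646 ± 120 CPM) and Paip2-201 (636 ± 145) overlapped, as did Pabpc2-201 (340 ± 23.5) and Pabpn1-201 (335 ± 30.9), and Pabpc6-201 (166 ± 26.9) lay below them. The inhibitor and the nuclear protein thus moved above Pabpc6-201 in ES. Divided by contig length, which raises short contigs, Pabpc1-201 led in RS wt/wt at 365 ± 2.98 CPM per kb, whereas in ES wt/wt Paip2-201 (431 ± 98.5 CPM per kb) and Pabpn1-201 (326 ± 30) stood above Pabpc1-201 (229 ± 42.5). An order that puts Pabpn1-201 above Pabpc1-201 therefore holds per kilobase and not per read.

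Reads of the PABPC genes and of their inhibitors were set against each other within each library, which needs no scaling between libraries. The summed reads of Pabpc1, Pabpc2 and Pabpc6 were divided by those of Paip2 and Paip2b. Wild-type RS libraries gave ratios of 9.61, 7.97 and 6.64, and the ES libraries of that genotype 0.907, 1.07 and 1.64. Mutant RS libraries gave 8.44, 8.21 and 7.77, and mutant ES libraries 0.96, 1.36 and 1.61. PABPC reads were thus several times as many as inhibitor reads in all 6 RS libraries and close to them in number in the 6 ES libraries. The RS mean was 6.68 times the ES mean in wt/wt and 6.22 times in dcat/dcat. This ratio is a description of mRNA reads, with no test, and it restates the differences above without the scaling.

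**Figure D3:**
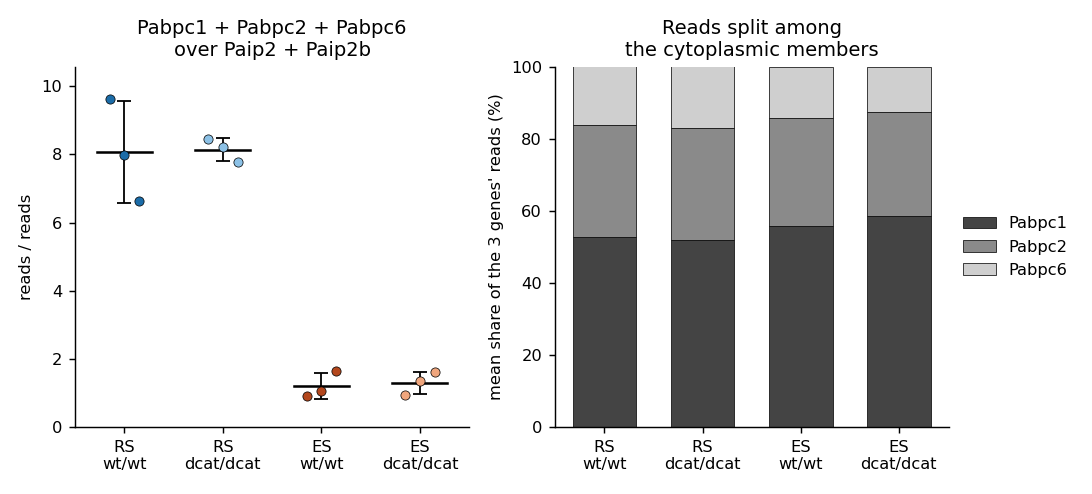
Left, reads of Pabpc1, Pabpc2 and Pabpc6 over reads of Paip2 and Paip2b in each library (points), with the group mean (line) and ±1 SD (n = 3): RS libraries lie between 6.64 and 9.61 and ES libraries between 0.907 and 1.64. Right, mean share of the 3 cytoplasmic genes' reads held by each gene per group, with Pabpc1 above 50% in all 4 groups.

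Paip2 and Pabpn1 had enough reads on more than 1 contig to ask whether the contigs of a gene moved alike. Paip2-201 held 82.4%, 69.7% and 70.4% of Paip2 reads in RS wt/wt and 71.3%, 62.8% and 61.8% in ES wt/wt. In dcat/dcat its share was 79.8%, 73.6% and 73.5% in RS and 75.2%, 65.3% and 59.6% in ES. Replicate 1 gave the highest share in every group, and the stages overlapped in both genotypes. The mean difference, ES minus RS, was -8.93 percentage points (exact two-sided permutation test within genotype, p = 0.045, adjusted p = 0.09 over 4 tests), which did not pass. The study isolated both stages from the same mice, though the labels do not say that a number marks the same pool, and the share was lower in ES in all 6 same-numbered pairs of libraries. An exact sign-flip permutation test within these pairs gave p = 0.0312, the smallest it can give, and an adjusted p of 0.0625. These Paip2 tests include the reads of Paip2-207, which passed the filter only through ES groups. The filter thus favoured, in part, a lower Paip2-201 share in ES. Pabpn1-201 held 94.1% to 100% of Pabpn1 reads in RS and 88.9% to 95.6% in ES, a mean difference of -4.74 percentage points. Within same-numbered pairs the Pabpn1-201 share was also lower in ES in 6 of 6. As Pabpn1-208 makes up the rest of the reads and passed the filter through ES dcat/dcat alone, the filter favoured this direction. The stage difference of this share counts among the 4 tests but is no test, and it is given by these shares only. Genotype differences of both shares did not pass (adjusted p = 0.645 for Paip2 and 0.387 for Pabpn1, exact permutation test).

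The Paip2 contigs fall into classes by their annotated 3′ end. The 3 contigs Paip2-201, Paip2-204 and Paip2-205 run to the far end, with a 3′ UTR of 928 to 932 nt, whereas Paip2-206, Paip2-207 and Paip2-208 stop 668 to 837 bases earlier, with 95 to 264 nt. In wt/wt the near-end contigs held 5.04%, 16.4% and 12.4% of Paip2 reads in the RS libraries, against 15.8%, 18.4% and 16.6% in the ES libraries. In dcat/dcat the RS libraries gave 8.87%, 8.43% and 9.9%, against 12.5%, 17.1% and 18.1% in ES. The dcat/dcat stages did not overlap, and in wt/wt RS replicate 2 lay within the range of the ES libraries. This grouping was chosen after the annotation and values were seen and was not tested, and it rests on 12 to 105 near-end reads per library. Paip2-207, in the near-end class, passed the filter only through ES groups. The filter thus favoured, in part, a higher near-end share in ES.

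**Figure D4:**
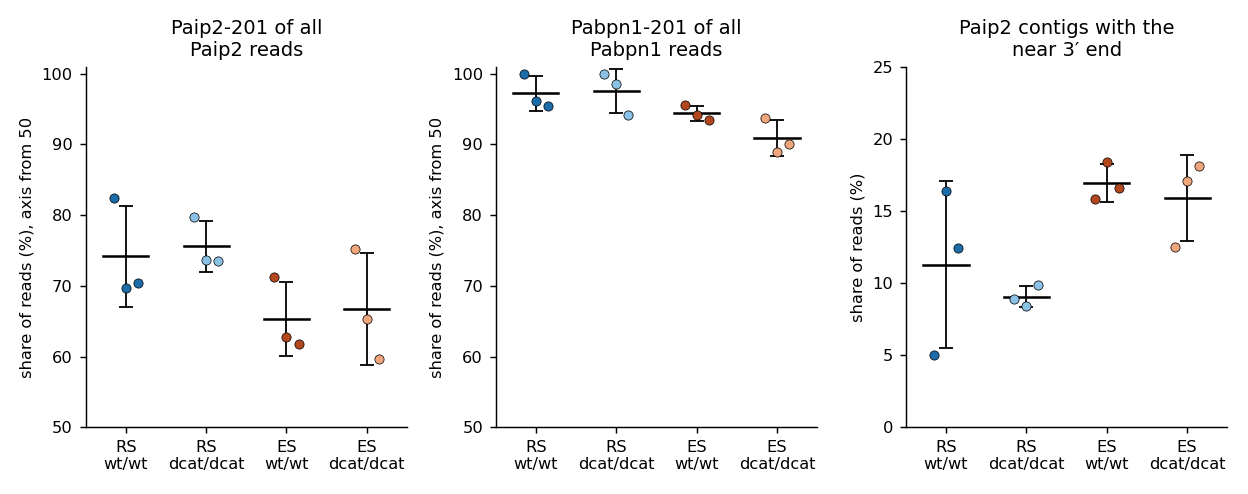
Share of Paip2 reads on Paip2-201, share of Pabpn1 reads on Pabpn1-201 (both axes from 50%) and share of Paip2 reads on the 3 contigs with the near 3′ end (axis from 0), per library (points) with the group mean (line) and ±1 SD (n = 3). The near-end share lies between 12.5% and 18.4% in ES and between 5.04% and 16.4% in RS. It includes Paip2-207, which passed the filter only through ES groups.

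Loss of TENT5C catalytic activity was compared within each stage. No member contig was called in RS, in ES or in the stage by genotype interaction (edgeR, 0 of 12 each), and none had an unadjusted p under 0.05. Across all contigs 0% were called in each of these comparisons, with 98, 356 and 170 of 11831 contigs at an unadjusted p under 0.05; DESeq2 called 0, 1 and 0 contigs, none of them a member. For gene sums edgeR also called 0% of genes. For Pabpc1 the log2 difference of dcat/dcat from wt/wt was 0.05 (95% interval -0.36 to 0.46) in RS and 0.18 (-0.24 to 0.60) in ES. For Pabpc2 it was 0.07 (-0.222 to 0.355) and 0.05 (-0.26 to 0.35), and for Paip2-201 0.05 (-0.37 to 0.47) and -0.03 (-0.44 to 0.38). Pabpn1-201 gave the widest gap among the main contigs in ES, -0.29 (-0.715 to 0.143). With the replicate number as 1 block over all 12 libraries, edgeR called 3 of all contigs between genotypes in RS and 1 in ES. With a block within each stage it called 5 in RS and 12 in ES. No member was among any of these. Same-numbered libraries deviated together in every pair in RS, whereas in ES the correlation for replicate 3 was 0.0336. The interaction interval of Pabpc1 was -0.46 to 0.72, so a difference in the stage change between genotypes was not detectable within those bounds.

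Other genes of tail binding and PABPC partnership were read from fixed lists, as gene sums. Of 6 further poly(A)-binding proteins, only Zc3h14, a nuclear zinc finger protein that binds poly(A), had contigs. It fell by 0.76 on the log2 scale (edgeR adjusted p = 0.000448) in wt/wt and by 0.51 (adjusted p = 0.00933) in dcat/dcat. Of 21 genes whose proteins bind PABPC1 or work with it, 11 had contigs: 3 were higher in ES, 2 lower and 6 not called in each genotype. Such calls were about as common among all genes tested. For wild-type libraries 26.1% of all genes were called higher and 22.9% lower, and for mutant libraries 26.4% were higher and 22.8% lower. An excess of calls among the partners was not tested. Their median log2 difference was -0.13 in wt/wt and -0.08 in dcat/dcat, against -0.22 and -0.17 over all genes. Eif4g1, the scaffold that joins PABPC1 to the cap-binding complex, rose by 2.93 on the log2 scale in both (edgeR adjusted p = 1.15e-07 and 1.9e-07). Tob1, which links PABPC1 to the deadenylase, rose by 1.13 and 1.35 (adjusted p = 0.00265 and 0.000448). Eif4b, which aids the eIF4A helicase, rose by 0.83 and 1.18 (adjusted p = 0.00986 and 0.000614). Atxn2l, an ataxin-2 relative, fell by 0.96 and by 0.97 (adjusted p = 0.00344 and 0.00289). Gspt1, the termination factor eRF3a, fell by 0.80 and by 0.83 (adjusted p = 0.00607 and 0.00444). Scaling by total counts turned the sign of Eif4b in wt/wt and ended the calls of Tob1 in both and of Eif4b in dcat/dcat, whereas the called members kept sign and call. Leaving out 1 library ended the wt/wt call of Gspt1 (edgeR adjusted p = 0.0564 without ES replicate 1) and the dcat/dcat call of Zc3h14 (adjusted p = 0.0645 without ES replicate 3).

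The genes whose profiles over the 12 libraries lay nearest to a member were picked by the root mean square difference of centred log2 CPM among 3158 genes with a mean of at least 50 CPM. For Pabpc1 they were Actr1a (0.119), Cnot1 (0.139) and Zdhhc5 (0.139), against a median of 0.506 over all genes compared. For Pabpc2 they were Gmps (0.0834), Sccpdh (0.0869) and Ddx25 (0.0931), against 0.48. For Paip2 they were Spata6 (0.094), BC049715 (0.0982) and Iqcf4 (0.104), against 1.09. All values come from the same 12 libraries and follow mostly the step between stages, so they describe these libraries alone.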

How the data were processed

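Whole-number read counts per contig were deposited by the authors for 12 direct RNA libraries (SQK-RNA002 chemistry), with no normalization. By the study's methods, reads were base called with Guppy, demultiplexed, aligned with minimap2 (2.20-r1061 in the submitters' processing notes) to GENCODE vM17 transcripts, and kept where Nanopolish passed their tail call. Reads without such a call are missing from every count, and contigs with few reads had been removed. The deposited tables of the authors' own comparisons hold fold changes, adjusted p-values and calls; they served only for gene symbols.

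Counts were fitted here with edgeR 4.0.16 in R 4.3.3 (quasi-likelihood test, TMM scaling, 1 mean for each of the 4 groups, Benjamini-Hochberg adjustment over all contigs or genes). Contigs were fitted where 2 or more libraries of any group held 10 or more reads. Gene sums added the contigs of 1 symbol. Share tests were exact permutations in Python 3.11.15. DESeq2 1.42.0 was an alternative, as were other scalings, filters, blocks and each library left out. The code was tested on simulated data. Positions are from GENCODE vM21 on GRCm38, and all 12 member contigs matched.

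All members with a contig were named, with the 3 highest and 3 lowest partner genes called in both genotypes (5 genes in all, as 5 were called, and 1 listed partner gene is not reported here) and the 3 nearest profiles of Pabpc1, Pabpc2 and Paip2. The members and lists were chosen with earlier results of these data known. Same-numbered libraries deviated together in every pair for genotypes in RS (correlations 0.696, 0.385 and 0.467 over contigs). For stages in dcat/dcat they did so too (0.519, 0.252 and 0.291). By the study, each sorting session held 1 mouse of each genotype, and the cell types came from the same mice. Libraries may thus share sessions or mice in every comparison. The labels do not say what a number marks, and these correlations cannot settle it. Depth was 337287 to 1359427 reads, and 3 reads equalled 1.77 to 10.6 CPM.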

Additional observations from a re-analysis of the deposited data

How the results depend on the processing

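No called difference of a member between stages changed its sign under total-count or RLE scaling, DESeq2, robust moderation, other filters, the 2 groups alone, a replicate block or any library left out. Of 1396 alternative values of single members, 1380 stayed on their side of the threshold, 9 lost the call and 7 gained it. All 9 losses were of Pabpc1, 5 gains were of Pabpc1 by gene sum in dcat/dcat and 2 were of Paip2b by gene sum in wt/wt (0.88 with the replicate block within each stage, adjusted p = 0.0483 by edgeR, and 1.12 without ES wt/wt replicate 1, adjusted p = 0.0489). Uncalled values changed sign 97 times, 93 of them between genotypes or in the interaction and 4 for Paip2b between stages. Requiring 10 reads in every library left 6 member contigs, all called, in each genotype, since fewer were tested. Leaving out 1 library moved the Pabpn1-201 share difference between -5.39 and -3.99 points and that of Paip2-201 between -10.8 and -7.44 points, with an adjusted p of 0.05 (exact permutation test) without ES dcat/dcat replicate 1. Contigs that passed the filter only through ES groups enter both shares, which favoured lower values in ES. Sign flips within same-numbered pairs, a replicate block added after seeing the data, also used a difference of -4.74 points for Pabpn1-201. As this stage difference is no test, only its size is given.

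Total counts in place of TMM moved the median log2 difference of all contigs between stages from -0.242 to -0.956 in wt/wt and from -0.182 to -0.846 in dcat/dcat, and the share of calls that were higher from 59% to 26.5% and from 58.7% to 28.2%. Under it, Eif4b was at -0.0046 in wt/wt. Calls over all contigs in wt/wt numbered 4766, 7364 with total counts and 2588 with 10 reads in every library; in dcat/dcat they numbered 4849, 6959 and 2562. The alternatives for partner genes were added after seeing the data.

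The replicate block over all libraries left the counts of member contigs called at 11 in both stage comparisons and at 0 between genotypes. Correlations of same-numbered libraries were uneven by stage in wt/wt (0.403, 0.363 and -0.0945) and by genotype in ES (0.454, 0.306 and 0.0336). A block within each stage takes the spread between numbers out of the error of a stage difference, so its p-values for stages are too small. Depth limits Paip2b, Pabpn1-208 and the shorter Paip2 contigs, at a few reads in some libraries. Counts measure reads that passed the tail call, in pools of 3 mice.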
